A study of Mus musculus with 4 samples.

Results

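The response to lipopolysaccharide (LPS) was read in macrophages that lacked both Hes1 and Hey1, by setting 1 array of LPS-treated cells against 1 array of untreated cells. The series held 4 arrays, and these 2 were chosen by their titles, DKO BMDMs-LPS 3h and DKO BMDMs-UT. Of 45101 probe sets, 34945 were annotated to 1 gene and gave 18193 genes, and 11240 of these genes lay above a floor of 52.9 intensity units on at least 1 of the 2 arrays. These 11240 genes are the ones compared below.

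Bone marrow-derived macrophages (BMDMs) are grown in culture from bone marrow precursors, here from mice on a C57BL/6 background for 5 days in medium that held 10% serum and 10% L929 supernatant, which supplies macrophage colony-stimulating factor (M-CSF). The DKO cells carried knockouts of both Hes1 and Hey1, and the WT cells were wild type. Within each genotype, cells stayed untreated or received 2 ng/ml of Escherichia coli LPS for 3 h. Its stated question was which inflammatory genes these factors regulate. How the alleles were deleted, in which cells, and the number, age and sex of the mice were not given in the sources used here.

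LPS is a component of the outer membrane of Gram-negative bacteria that macrophages sense through CD14 and Toll-like receptor 4. The receptor acts through adaptor proteins on NF-kB, MAP kinases and interferon regulatory factors, which drive waves of early and later transcription, while other transcripts of the resting cell decline. Hes1 and Hey1 are basic helix-loop-helix repressors, best known as targets of Notch signalling, that bind DNA at E-box-like letters and at related sites named HES class C.

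Each group had 1 array, so no value below has a replicate check, no error can be given, and differences were not tested. Genes count as higher or lower with LPS when the arrays differed by at least 2-fold on the authors' linear intensity scale. Values under the floor were set to it, and a fold resting on such a value is a bound, written "at least". Genes above the floor on 1 array alone could differ in 1 direction only. Intensities of different genes come from different probe sets, so a place among bright or dim genes describes the probe sets' signal and does not rank transcript levels.

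Macrophage markers were bright in both DKO samples. All 23 measured macrophage markers lay above the floor on both arrays, among them Csf1r, the M-CSF receptor, at 21557 units untreated and 24370.0 with LPS, and Adgre1, which encodes the F4/80 antigen, at 15507 units untreated and 19134 with LPS. Of the 23, Cd14 and Msr1 were at least 2-fold higher with LPS and Mertk, Ccr2 and Maf at least 2-fold lower, and these are described below with their classes. The array medians were 51.0 units untreated and 50.8 with LPS. Hes1 read 2.14 units untreated and 5.80 with LPS, and Hey1 read 9.17 units untreated and 10.2 with LPS, all under the floor. The labels do not say which exons were removed or whether these probes match them. In WT cells Hes1 read 45.4 and 26.7 units and Hey1 57.2 and 17.3 units, so the genotype could be checked only weakly. Markers of other cells were mostly under the floor: 3 of 11 for neutrophils lay above it on at least 1 of these arrays, 3 of 14 for lymphocytes, 2 of 10 for dendritic cells, 4 of 14 for stroma and endothelium, and 5 of 15 for mast cells, erythroid cells and platelets. The summed level was 1517 units untreated and 1139.8 with LPS for neutrophil markers, 507 and 439 for lymphocyte markers, 6366 and 6086 for dendritic cell markers, 3049 and 2256 for stromal markers, and 4445 and 7228 for the last list, where Pf4, a platelet chemokine that macrophages can also make, read 3964 units untreated and 6689.9 with LPS. Most of the dendritic cell sum was Bst2, which is also on the list of interferon-stimulated genes, at 6125 units untreated and 5953 with LPS. The part of such other cells in any result was not tested. In such bulk RNA, fewer cells of a type and less RNA per cell cannot be told apart.

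With LPS, 524 genes were higher, 4.66% of those compared, and 536 were lower, 4.77%, which makes 1060 in either direction, or 9.43%. The counts were close, but the sizes were not. At 4-fold or more 182 genes were higher and 56 lower, at 8-fold or more 73 were higher and 10 lower, and at 16-fold or more 35 were higher and 1, the transcription factor gene Sox4, was lower. The median log2 difference over all 11240 genes was -0.10, with quartiles at -0.39 and 0.16. Among the called genes, 82 higher and 52 lower ones rested on a bound. Differences refer to a gene's brightest probe set; for the named genes Adcy9, Foxo3, Il6ra, Itga4, Itga5, Klf9, Mknk2, Mrpl52, Msr1, Pde7a, Rgs16, Sesn1, Slc39a14, Slc7a7, Trem1, Trib1 and Tsc22d3 at least 1 other probe set was short of 2-fold and over 1.5-fold away, and for others this is said beside the value.

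Calls are given by the untreated level as a description only, since that level is also the base of the difference, which by itself favours higher calls among dim genes and lower calls among bright ones. Of 557 genes under the floor untreated, which entered through the LPS array alone, 14.7% were higher and by construction none could be lower. Between the floor and 200 units 6.17% were higher and 4.48% lower, from 200 to 1000 units 4.57% were higher and 6.60% lower, from 1000 to 5000 units 3.14% and 4.06%, and above 5000 units 1.60% and 2.98%. Only 43 of the 940 genes in the brightest class were thus called, 15 of them higher and 28 lower. Among the 10 genes brightest with LPS, 9 were short of 2-fold. Fth1, the heavy chain of the iron store ferritin, read 30977 units untreated and 38241 with LPS, and Tmsb4x, an actin-binding peptide, 35423 units untreated and 37934 with LPS. Clec4e, a receptor gene described below, was the other one, and its LPS level of 32329 units came from 1853 untreated.

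**Figure D1:**
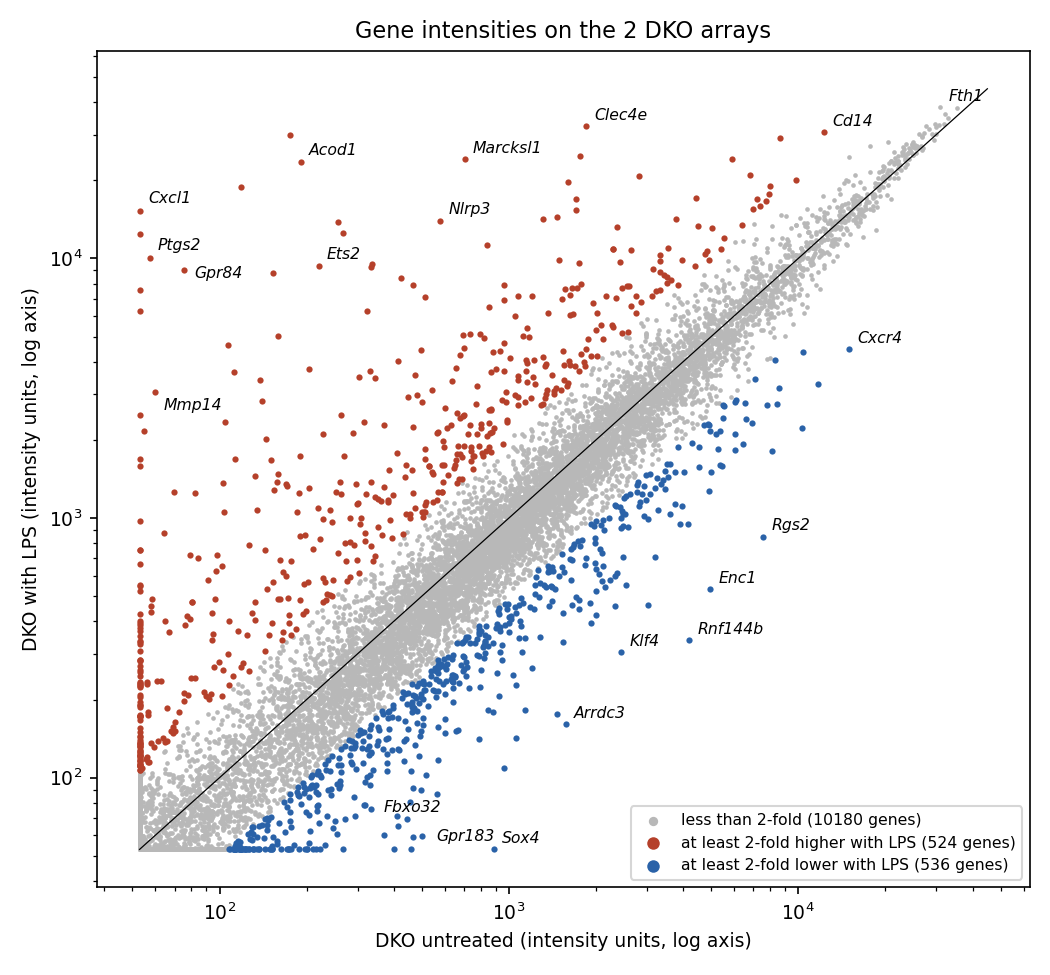
Each point is 1 of 11240 genes, with its intensity in untreated DKO cells on the x axis and in LPS-treated DKO cells on the y axis, both in intensity units on log axes and with values under 52.9 units set to that floor. Red points are the 524 genes at least 2-fold higher with LPS, blue points the 536 at least 2-fold lower, and grey points the rest; the red cloud reaches much farther from the line of equal intensity than the blue one.

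The 3 genes given as markers of the response were all higher. Ptgs2 encodes the inducible cyclooxygenase that starts prostaglandin synthesis, and read 57.3 units untreated and 10038 with LPS, a 175-fold difference. Cxcl1 encodes a neutrophil-attracting chemokine, and read 34.1 units untreated and 15192 with LPS, at least 287-fold higher. Mmp14 encodes a membrane-anchored matrix metalloprotease, and read 59.8 units untreated and 3068 with LPS, 51.3-fold higher. Other probe sets of the same genes read them higher by less: the log2 difference was 2.74 for the other Ptgs2 probe set against 7.45, and 2.73 to 3.75 for those of Mmp14 against 5.68.

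The letters of the promoter are shown for a few members whose regulators the study and the pathway bear on. The windows, each the 250 bases before the start of transcription, are from RefSeq on GRCm38.p6, 5′ to 3′ on the gene's strand, for 4 strongly higher genes, for the Notch ligand gene Jag1 and for the lowered factor gene Klf4. Capitals mark, on either strand, GGGAANNNC (an NF-kB site), TATAAA (the TATA box), CACGTG (an E-box of the kind that HEY proteins can bind) and CACGCG (the HES class C site).
Ptgs2, chr1:150099781-150100030, plus strand: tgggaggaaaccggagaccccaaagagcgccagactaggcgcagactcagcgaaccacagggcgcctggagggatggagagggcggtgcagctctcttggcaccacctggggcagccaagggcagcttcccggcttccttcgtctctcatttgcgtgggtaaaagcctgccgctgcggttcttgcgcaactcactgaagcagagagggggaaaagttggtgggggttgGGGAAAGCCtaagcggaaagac
Cxcl1, chr5:90890995-90891244, plus strand: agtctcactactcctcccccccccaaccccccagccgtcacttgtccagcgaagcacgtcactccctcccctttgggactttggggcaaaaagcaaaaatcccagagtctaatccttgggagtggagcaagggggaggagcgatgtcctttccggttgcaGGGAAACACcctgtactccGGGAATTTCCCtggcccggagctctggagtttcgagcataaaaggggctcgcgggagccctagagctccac
Gpr84, chr15:103310439-103310688, minus strand: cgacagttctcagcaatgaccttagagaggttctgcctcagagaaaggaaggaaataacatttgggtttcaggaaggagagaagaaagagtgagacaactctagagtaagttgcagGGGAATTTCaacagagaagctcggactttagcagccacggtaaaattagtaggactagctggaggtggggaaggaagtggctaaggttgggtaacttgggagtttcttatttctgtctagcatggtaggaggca
Acod1, chr14:103046762-103047011, plus strand: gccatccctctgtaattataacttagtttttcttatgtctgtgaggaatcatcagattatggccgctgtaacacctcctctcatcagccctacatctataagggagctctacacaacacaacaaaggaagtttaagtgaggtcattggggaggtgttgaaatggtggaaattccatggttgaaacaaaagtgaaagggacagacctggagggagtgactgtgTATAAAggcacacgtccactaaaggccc
Jag1, chr2:137116521-137116770, minus strand: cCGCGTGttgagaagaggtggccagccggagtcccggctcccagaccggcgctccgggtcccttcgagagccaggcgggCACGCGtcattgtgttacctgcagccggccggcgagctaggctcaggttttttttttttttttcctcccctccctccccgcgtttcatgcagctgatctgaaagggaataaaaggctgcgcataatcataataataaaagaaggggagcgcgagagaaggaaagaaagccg
Klf4, chr4:55532476-55532725, minus strand: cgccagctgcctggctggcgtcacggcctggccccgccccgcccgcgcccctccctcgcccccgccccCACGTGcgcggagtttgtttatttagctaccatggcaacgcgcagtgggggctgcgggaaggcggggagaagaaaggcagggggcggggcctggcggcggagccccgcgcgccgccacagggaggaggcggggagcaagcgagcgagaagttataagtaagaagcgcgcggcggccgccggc
The NF-kB letters began 22 bases before the start of Ptgs2, 134 before that of Gpr84 and, as overlapping matches, 71 and 69 before that of Cxcl1, with a further match at 90. Acod1 had a TATA box 28 bases before its start. Jag1 had HES class C letters at 249 and 171 bases, and Klf4 had an E-box at 182. The same windows of Mmp14 and of Rgs2, a lowered gene described below, held none of these 4 motifs and are not printed. This says only that these letters are not in them. All windows printed are thus ones with a match.

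Over 7323 compared genes with 1 RefSeq window, 48 were at least 8-fold higher, 275 were 2- to 8-fold higher, 315 were lower and 6685 were neither. The NF-kB letters stood in 33.3% of the windows of genes at least 8-fold higher, in 22.5% of those 2- to 8-fold higher, in 18.4% of those lower and in 18.8% of all. TATAAA stood in 22.9%, 8.73%, 5.08% and 6.43% in the same order. The interferon response letters GAAANNGAA stood in 12.5%, 10.5%, 3.81% and 6.01%, and the AP-1 letters TGANTCA in 10.4%, 5.45%, 5.08% and 4.0%. The first class held 16, 11, 6 and 5 matching windows for these motifs, so its shares rest on few genes. HES class C letters stood in 3 of the 48 windows of genes at least 8-fold higher, or 6.25%, in 15.3% of those 2- to 8-fold higher, in 14.6% of those lower and in 15.3% of all. CACGTG stood in 6.25%, 8.36%, 9.84% and 8.55%. These differences between classes were not tested. Base composition moved with these shares: the median GC content was 56.8% in the most induced class and 60.0% over all windows, and the median number of CpG letter pairs was 10 against 16. Its part in the motif shares was not tested.

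**Figure D2:**
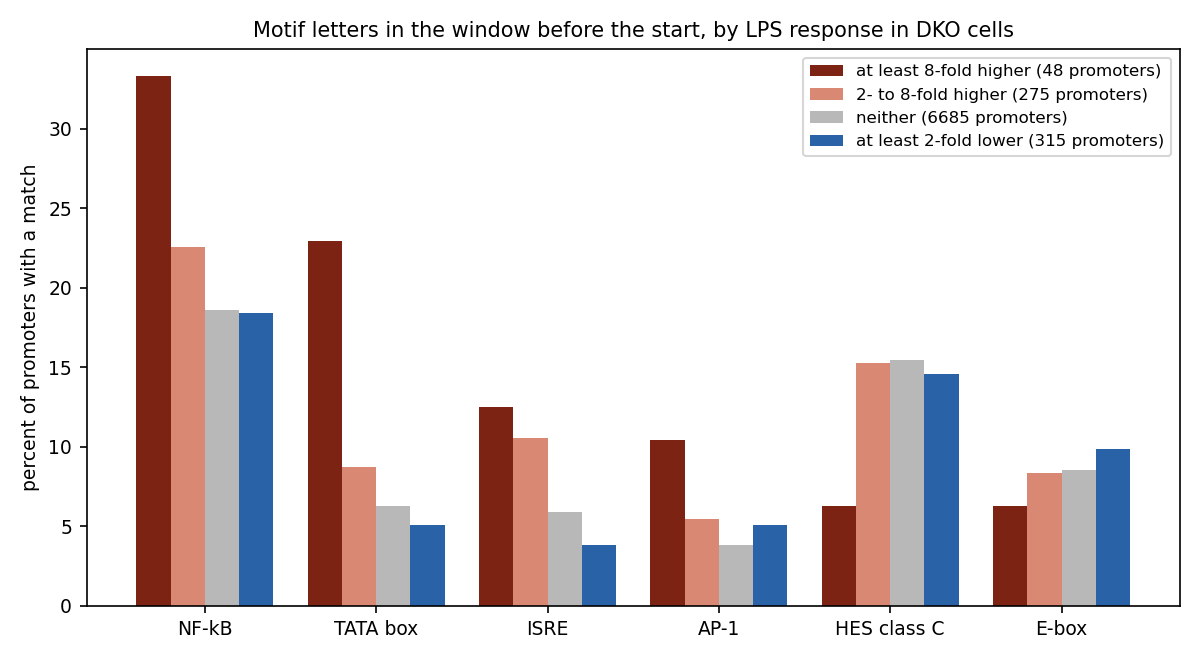
Bars show the percent of promoter windows of 250 bases that hold each motif at least 1 time on either strand, for genes at least 8-fold higher with LPS in DKO cells (48 windows), 2- to 8-fold higher (275), neither (6685) and at least 2-fold lower (315). NF-kB letters stand in 33.3% and TATA letters in 22.9% of the windows of the most induced class, which rests on 48 windows.

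Lists of functional classes covered 1850 of the compared genes, of which 265 were higher and 119 lower. Cytokines and chemokines, given here for scale, were higher for 26 of 34 and lower for none, with a median log2 difference of 2.43. The class of NF-kB subunits, IkB proteins and feedback regulators was higher for 19 of 24, a share of 79.2%, with a median of 1.79. Among the other classes with at least 12 compared members, the share of higher members reached at most 31.2%, in the MAP kinase phosphatase class. Lower members outnumbered higher ones most in Kruppel-like factors, nuclear receptors and clock genes, and the list of FoxO targets and growth restraint. The lists were chosen with earlier results known, so these shares describe them and support nothing further. Every class count below is to be read against the 4.66% higher and 4.77% lower over all genes compared.

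**Figure D3:**
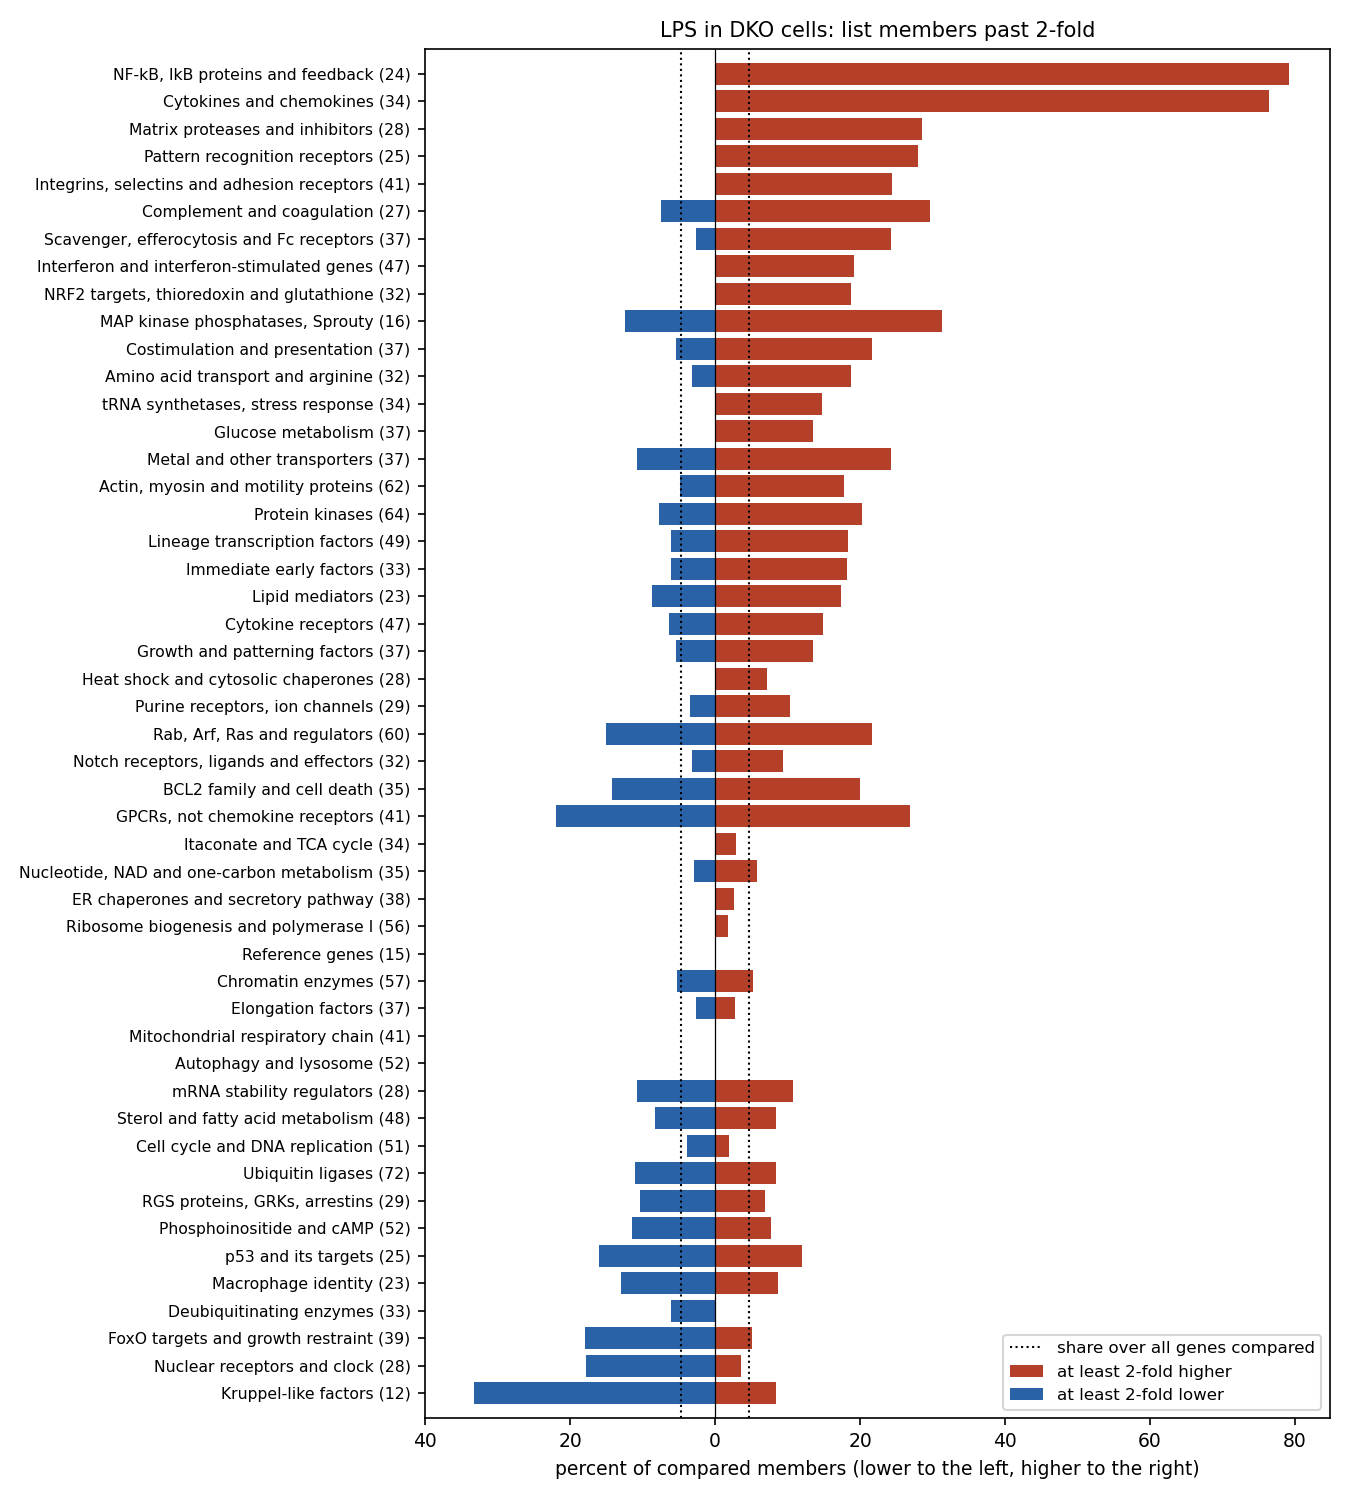
Bars give, for functional lists with at least 12 compared members (number in brackets), the percent of members at least 2-fold higher with LPS in DKO cells to the right and at least 2-fold lower to the left. Dotted lines mark the shares over all genes compared, 4.66% higher and 4.77% lower; NF-kB regulators and cytokines stand far to the right, and Kruppel-like factors extend farthest to the left.

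Receptors that sense microbial products were higher for 7 of 25 and lower for none. Clec4e, which encodes Mincle, a lectin receptor for damaged cells and mycobacterial glycolipid, was 17.5-fold higher. Nlrp3 encodes the sensor of an inflammasome and read 577 units untreated and 13989 with LPS, 24.3-fold higher. Tlr2, a receptor for bacterial lipoproteins, went from 1702 to 16966 units. Its partner Tlr1 went from 570.4 to 2140.4 units, and Cd14, which hands LPS to the TLR4 complex, from 12234 to 30625 units. The cytosolic sensors Nod1 and Cgas were 2.54-fold and 2.45-fold higher. Tlr4 itself was short of 2-fold, at 2516 units untreated and 1969 with LPS.

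Among the NF-kB regulators the inhibitors were prominent. Nfkbie, which encodes IkB-epsilon, read 152 units untreated and 8812 with LPS, 57.8-fold higher. Nfkbiz, a nuclear IkB protein that activates secondary response genes, was 27.8-fold higher, and Tnfaip3, the ubiquitin-editing enzyme A20, 19.8-fold higher. Nfkbia, the classical IkB-alpha, was already bright, and went from 8624 to 29055 units. Socs3, which limits signalling by interleukin 6 family receptors, was at least 119-fold higher. Of the subunit genes, 4 were higher, Relb 10.1-fold, Nfkb2 7.54-fold, Rel 3.01-fold and Rela 2.43-fold. The remaining subunit gene, Nfkb1, was not among the compared members of the list, so nothing is said of it. Brakes on MAP kinases divided. The phosphatase genes Dusp4, Dusp16 and Dusp2 were 7.34-fold, 6.41-fold and 5.26-fold higher and the inhibitor genes Spred1 and Spred2 4.14-fold and 2.86-fold higher, whereas Dusp7 went from 911 to 253 units and Dusp22 from 1327 to 553 units.

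G protein-coupled receptors had many members on both sides: 11 of 41 were higher, or 26.8%, and 9 lower, or 22.0%, against 4.66% and 4.77% of all genes. The higher ones included receptors for fatty acids, formyl peptides and lipid mediators. Gpr84, a receptor for medium-chain fatty acids, read 75.3 units untreated and 9011 with LPS, 119.6-fold higher. Fpr2, a formyl peptide receptor, read 31.1 units untreated and 1591 with LPS, and Hcar2, the niacin and ketone body receptor, 15.4 units untreated and 756 with LPS, both from under the floor. Lpar1, a lysophosphatidic acid receptor, was 10.2-fold higher and the orphan receptor gene Gpr85 9.10-fold higher. Fzd1, a Wnt receptor, was 14.9-fold higher on its brightest probe set, while another probe set gave a log2 difference of 0.37.

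Of the 9 lower receptors, 5 sense oxysterols, lysophosphatidic acid, cannabinoids or nucleotides, and the others were Gpr160 (at least 8.69-fold lower), Gpr155 (4.47-fold), Gpr146 (3.57-fold) and Mrgpre (2.82-fold). Gpr183, the oxysterol receptor that guides cell positioning, read 501 units untreated and 59.4 with LPS, 8.43-fold lower. Lpar6, another lysophosphatidic acid receptor, read 3035 units untreated and 462 with LPS, so 2 receptors of this ligand differed in opposite directions. The cannabinoid receptor gene Cnr2 was 5.57-fold lower, at 789 units untreated and 142 with LPS. Of the purine receptors, P2ry1 went from 232 to 54.9 units and P2ry6, which senses UDP, from 4521 to 1878 units, while P2ry13 was higher, from 108 to 228 units. The ion channel gene P2rx7, gated by ATP, went from 1402 to 546 units, although its other probe sets ranged from a log2 difference of -1.70 to 0.15.

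Of 29 regulators of G protein signalling, receptor kinases and arrestins, 2 were higher (6.90%), 3 lower (10.3%) and 24 neither. Over all genes 4.66% were higher and 4.77% lower. Rgs2, a GTPase-activating protein for G protein alpha subunits, read 7546 units untreated and 849 with LPS, 8.89-fold lower. Its other probe sets ranged from a log2 difference of -3.71 to -0.21. Arrdc3, an arrestin-domain protein that sorts receptors for degradation, read 1571 units untreated and 161 with LPS, 9.76-fold lower. Rgs16 was at least 7.30-fold higher from under the floor. Pde4b, the phosphodiesterase that degrades cyclic AMP, read 112 units untreated and 3658 with LPS, 32.5-fold higher, whereas Pde7a went from 436 to 166 units and the adenylyl cyclase gene Adcy9 from 575 to 236 units. Of 52 genes of phosphoinositide and cyclic nucleotide signalling, 4 were higher and 6 lower. These shares were 7.69% and 11.5%, against 4.66% and 4.77% of all genes. Of the 6 lower ones, 4 stayed lower under both rescalings of the arrays, equal medians and quantile normalization.

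Chemokine receptors were few above the floor, and 3 of 6 were lower. Cxcr4, the receptor for CXCL12 that retains cells in bone marrow, went from a high level of 14926 units to 4465, 3.34-fold lower. Ccr2, the monocyte receptor for CCL2, read 490.4 units untreated and 121 with LPS, and Cxcr3 432 units untreated and 138 with LPS. The 3 other probe sets of Ccr2 were short of 2-fold, with log2 differences of -0.84 to -0.25 against -2.01. Ccrl2, a non-signalling receptor that presents chemerin, was 8.99-fold higher, at 496 units untreated and 4456 with LPS. Cytokine receptor genes gave 7 higher and 3 lower of 47, with Il6ra, the interleukin 6 receptor, lower, from 2319 to 596 units. In that class Pdgfrb and Kdr are also on the list of stromal and endothelial markers: Pdgfrb read 4.05 units untreated and 144 with LPS and Kdr 635 units untreated and 286 with LPS.

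**Figure D4:**
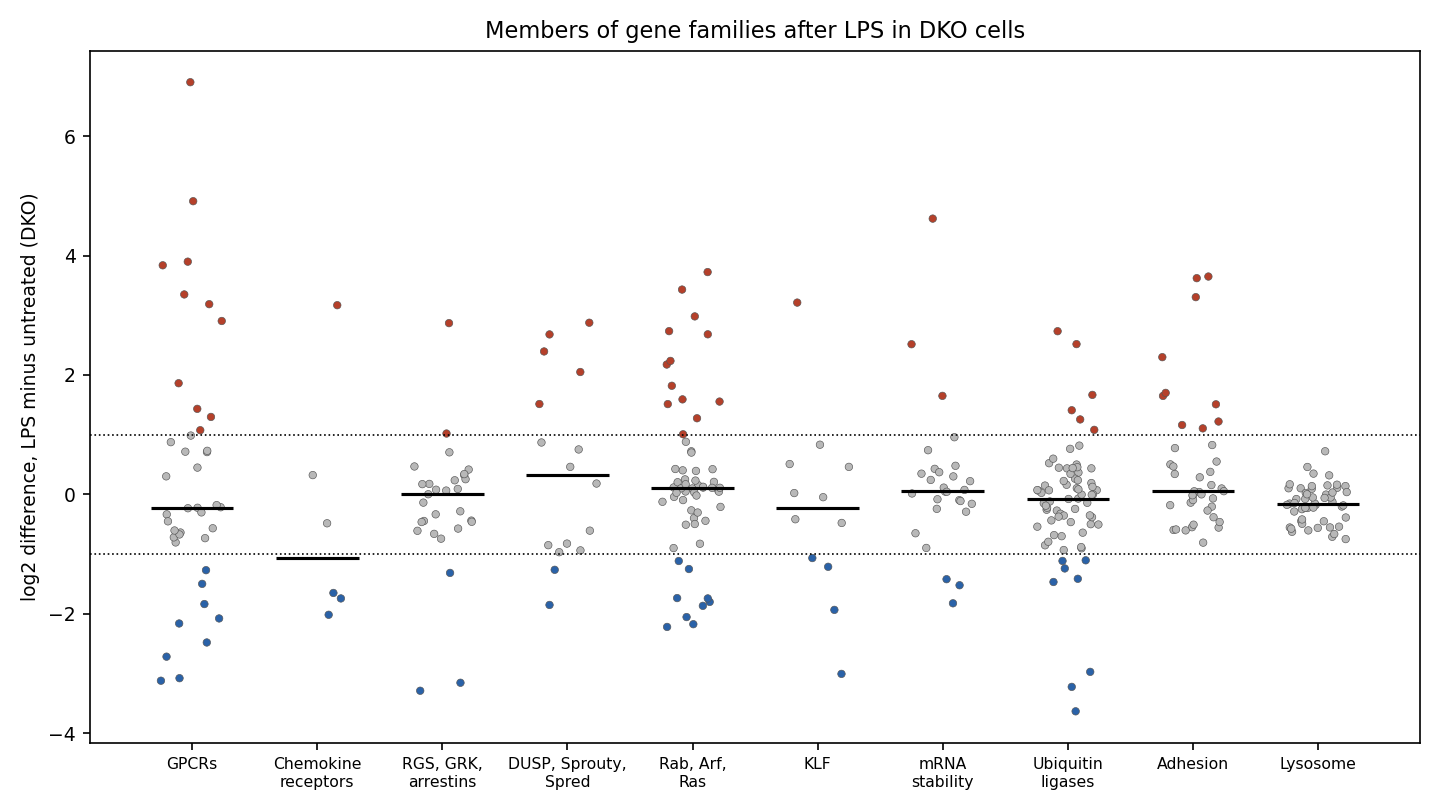
Each point is 1 compared member of a functional class, placed by its log2 difference between LPS-treated and untreated DKO cells; horizontal jitter has no meaning, bars are class medians, and dotted lines mark 2-fold. Red points are higher and blue points lower; receptors and Rab, Arf and Ras regulators have members on both sides, adhesion genes have none below the lower line, and lysosomal genes stay between the lines.

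Genes for adhesion, matrix breakdown and uptake that passed 2-fold were nearly all higher. In the adhesion class 10 of 41 were higher and none lower. Icam1, the ligand of leukocyte integrins, read 1594 units untreated and 19612 with LPS, 12.3-fold higher. Sdc4, a heparan sulphate proteoglycan of focal adhesions, read 1461 units untreated and 14427 with LPS. Vcam1 and Itgb8, an integrin subunit that activates TGF-beta, came from under the floor to 260.4 and 664 units. The leukocyte integrin subunits Itga5, Itga4 and Itgal were 3.14-fold, 2.33-fold and 2.24-fold higher.

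Matrix proteases and their regulators were higher for 8 of 28 and lower for none. Beside Mmp14, the collagenase gene Mmp13 read 541 units untreated and 3104 with LPS, 5.74-fold higher. The aggrecan-cleaving protease gene Adamts4 was at least 6.38-fold higher and Serpinb2, an inhibitor of plasminogen activators, at least 6.18-fold higher. Plaur, the receptor for urokinase, went from 409 to 1774 units. The tissue activator gene Plat was at least 2.30-fold higher, so an activator, a receptor and an inhibitor of plasminogen activation were all among the higher genes.

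Scavenger, efferocytosis and Fc receptors gave 9 higher and 1 lower of 37. Marco, a scavenger receptor for bacteria, read 4.58 units untreated and 395 with LPS, at least 7.47-fold higher, and Olr1, the receptor for oxidised LDL, 17.8 units untreated and 334 with LPS. The other probe set of Marco gave a log2 difference of 0.13. Msr1, the class A scavenger receptor, went from 2859 to 6776 units, and Fcgr2b, the inhibitory Fc gamma receptor, from 2645 to 10778 units. The amplifier of inflammation Trem1 went from 78.9 to 409 units. Mertk, the kinase receptor by which macrophages take up apoptotic cells, was the lower member, with 1917 units untreated and 395 with LPS, 4.86-fold lower.

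Of 23 lipid mediator genes 4 were higher and 2 lower, and 17 were neither. Ptges, the terminal synthase of prostaglandin E2, read 37.0 units untreated and 754 with LPS, at least 14.2-fold higher. Pla2g4a, the phospholipase that releases arachidonic acid, was 2.71-fold higher, at 778 units untreated and 2109.9 with LPS, and the prostacyclin receptor gene Ptgir 4.54-fold higher. Hpgd, which inactivates prostaglandins, was lower, at 2586 units untreated and 921 with LPS.

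Metabolic genes past 2-fold lay at a few steps. Acod1, the enzyme that makes itaconate from a tricarboxylic acid cycle intermediate, read 191 units untreated and 23589 with LPS, 124-fold higher, and was the only one of 34 genes of itaconate synthesis, that cycle and mitochondrial carriers past 2-fold. Of 37 genes of glucose uptake and metabolism, 5 were higher: the transporter genes Slc2a1 (from 1175 to 4966 units) and Slc2a6 (from 1120.2 to 5029 units), Hif1a (from 3445 to 8629 units), the enolase gene Eno2 and the mTOR inhibitor gene Ddit4. Most glycolytic enzymes were short of 2-fold, as for Ldha at 13574 units untreated and 15718 with LPS and Hk2 at 1091 units untreated and 781 with LPS. Ch25h, which makes 25-hydroxycholesterol, read 104 units untreated and 2337 with LPS, 22.4-fold higher. Its product is a precursor of the ligand of the lowered receptor Gpr183. Of 48 sterol and fatty acid genes 4 were higher and 4 lower, or 8.33% each, against 4.66% and 4.77% of all genes. The lower ones were Lpin1, a phosphatidic acid phosphatase (from 849.8 to 182 units), Dhcr7, Scd2 and the cholesterol exporter gene Abcg1 (from 6545 to 2781 units). The related exporter gene Abca1 was higher, from 3317 to 8868 units.

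Of 32 genes of amino acid transport and arginine metabolism 6 were higher and 1 lower. Slc7a11, the cystine importer, read 69.8 units untreated and 1255 with LPS, 18.0-fold higher. The cationic amino acid carriers Slc7a2 and Slc7a1 were 2.65-fold and 2.19-fold higher, and the arginase gene Arg2 6.25-fold higher. Gch1, which makes the cofactor of nitric oxide synthase, was 6.01-fold higher. The synthase gene Nos2 itself was short of 2-fold, with a log2 difference of 0.47. Of 37 metal, nucleoside, organic anion and other transporters 9 were higher and 4 lower. The metal importer genes Slc39a14 and Slc11a2 went from 171 to 1327 units and from 299 to 1136 units, and Slc25a37, the mitochondrial iron importer, from 677 to 2428 units, whereas Slc40a1, the iron exporter ferroportin, went from 3280.4 to 1075 units. The organic anion carrier gene Slco3a1 was 6.39-fold higher and the nucleoside carrier gene Slc29a3 3.14-fold lower. Over all 208 solute carriers compared, 17 were higher, or 8.17%, and 14 lower, or 6.73%.

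Small GTPases and the cytoskeleton included many genes past 2-fold. Of 60 Rab, Arf and Ras family members and regulators, 13 were higher and 9 lower. Rab20, a GTPase of phagosomes, went from 103 to 1359.5 units, and Rassf4 from 1315 to 14179.7 units. The Ras exchange factor genes Ralgds, Rasgef1b and Rasgrp1 were 6.41-fold, 4.52-fold and at least 3.53-fold higher, while Rasgrp3 went from 3199.9 to 710.0 units. Rab7b, which acts in late endosomes and in TLR4 degradation, went from 6428 to 1924 units, and Rap2a from 5010.0 to 1505 units.

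Actin and motility proteins were higher for 11 of 62 and lower for 3. Marcksl1, a membrane protein that organises actin, read 702 units untreated and 24191 with LPS, 34.4-fold higher, and its relative Marcks went from 7365 to 15918 units. Tnfaip2, which promotes membrane protrusions, went from 5909 to 24204 units. Outside that list, Cdc42ep2, an effector of CDC42, went from 54.9 to 2171 units, 39.5-fold higher. Ehd1, an ATPase of endocytic recycling and also outside the list, was 28.3-fold higher, at 338 units untreated and 9554 with LPS.

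Among transcription factors, 6 of 33 AP-1, EGR, NR4A, CREB and ATF members were higher and 2 lower, and 9 of 49 lineage, ETS, IRF, CEBP, STAT and MEF factors were higher and 3 lower. Ets2 read 219.8 units untreated and 9371 with LPS, 42.6-fold higher. Junb went from 1529 to 6963 units, whereas Jun went from 3034 to 991 units, so members of the same AP-1 family differed in direction. Among CEBP factors, Cebpd was 6.70-fold higher and Cebpb 2.23-fold higher, while Cebpa, the factor of myeloid progenitors, went from 3914 to 944 units. Among interferon regulatory factors, Irf1 went from 1488 to 9855 units and Irf8, a factor of monocyte development, went from 4540.0 to 1568 units. Sox4 read 888 units untreated and 25.5 with LPS, at least 16.8-fold lower, the largest difference on the lower side. Gfi1, a repressor of myeloid genes, went from 2.05 to 208 units, at least 3.93-fold higher.

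Kruppel-like factors were lower for 4 of 12, or 33.3%. Klf4, which takes part in monocyte differentiation, read 2447 units untreated and 305 with LPS, 8.02-fold lower, and its other probe set gave a log2 difference of -2.41. Klf9 went from 2354 to 617 units and Klf11 from 446 to 192 units. Klf10 went from 1525 to 729 units, and came just short of 2-fold after quantile normalization. Klf7 was higher, from 159 to 1474 units. Nuclear receptors and clock genes gave 1 higher and 5 lower of 28: the lipid-sensing receptor genes Pparg and Ppard went from 527 to 188 units and from 464 to 188 units, their partner Rxra from 496 to 209 units, and the clock genes Dbp and Per1 from 659 to 151 units and from 356 to 153 units. Ppargc1b, a coactivator of such receptors in mitochondrial gene expression, was at least 3.78-fold lower. Zinc finger genes named Zfp had 3 higher and 14 lower of 270, or 1.11% and 5.19%, the latter near the 4.77% of all genes, with a median log2 difference of -0.26.

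The list of chromatin enzymes was near the share over all genes, with 3 of 57 higher and 3 lower. One of the higher members, Jdp2, encodes a factor of the AP-1 family and not an enzyme. Kdm6b, the JMJD3 demethylase of lysine 27 of histone H3, was at least 8.08-fold higher, at 49.0 units untreated and 428 with LPS. Tet2 was 2.32-fold higher and Tet3 2.31-fold lower, so 2 enzymes that oxidise methylcytosine differed in direction. Elongation factors, which release paused polymerase, gave 1 higher, Ell2 (from 3532 to 10969.8 units), and 1 lower, Mllt3 (from 293 to 84.2 units), of 37.

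Control of protein stability included several of the genes lowered most. Of 28 regulators of mRNA stability 3 were higher and 3 lower, or 10.7% each, against 4.66% and 4.77% of all genes. Zc3h12c and Zc3h12a, RNases of the Regnase family that destroy inflammatory mRNAs, were 24.6-fold and 5.72-fold higher, while Zc3h12d went from 1102 to 384 units. Zfp36l2 and Zfp36l1, which promote decay of AU-rich mRNAs, went from 11649.8 to 3294 units and from 3453 to 1292 units. Other probe sets of Zfp36l2 gave log2 differences of -0.94 and -0.37 against -1.82. Of 72 ubiquitin ligases and adaptors 6 were higher, or 8.33%, and 8 lower, or 11.1%, against 4.66% and 4.77% of all genes. Rnf144b, a RING ligase, had the largest difference on the lower side among genes above the floor on both arrays, with 4195 units untreated and 339 with LPS, 12.4-fold lower. Enc1, a kelch adaptor, read 4958 units untreated and 531 with LPS, and Fbxo32, the F-box protein atrogin-1, 465 units untreated and 59.3 with LPS. The deubiquitinase gene Usp2 was 7.46-fold lower, at 1056 units untreated and 142 with LPS. Peli1, a ligase of the Toll-like receptor pathway, was higher, from 2077 to 5519 units. Of 48 F-box genes 0 were higher and 4 lower, or 8.33% against 4.77% of all genes, a difference of few genes.

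The list of FoxO factors, their targets and growth restraint had 2 higher and 7 lower of 39. Its median log2 difference was -0.41 against -0.10 over all genes. The list is mixed, since it also holds Myc, D cyclins and insulin-type receptor genes. Foxo3 went from 1658 to 461 units, Sesn1, an inhibitor of mTORC1 that senses amino acids, from 3970.0 to 1110.2 units, and Tsc22d3, the glucocorticoid-induced protein GILZ, from 2333 to 458 units. Pik3ip1, an inhibitor of PI3 kinase, was at least 3.33-fold lower. The cyclin-dependent kinase inhibitor gene Cdkn1a was higher, from 7178 to 16881 units, although it is on the same list. The other higher member was the cyclin gene Ccnd2, from 66.0 to 186 units. Its 4 other probe sets gave log2 differences of 0.38 to 1.46 against 1.49. In the cell death class 7 of 35 were higher and 5 lower, of which 3 stayed lower under both rescalings of the arrays. Cflar, which blocks caspase 8, went from 965 to 6928 units, with log2 differences of 0.44 to 4.34 on 4 other probe sets against 2.84, and the death receptor gene Fas from 133 to 1450.3 units. Bok and Bmf, which promote death, were at least 2.59-fold and 2.43-fold lower. Of 51 cell cycle genes 1 was higher, Cdk6, and 2 were lower, the replication licensing gene Cdt1 (from 8442 to 2756 units) and the phosphatase gene Cdc25b.

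Stress responses were selective. NRF2 targets and redox genes were higher for 6 of 32 and lower for none, led by Sod2, the mitochondrial superoxide dismutase (from 2805 to 20704 units), Sqstm1 (from 6796 to 20892 units) and Txnrd1 (from 4494 to 13364 units). Of 28 heat shock genes 2 were higher, or 7.14% against 4.66% of all genes. They were the inducible HSP70 genes Hspa1b (from 513 to 7121 units) and Hspa1a (from 360.4 to 1165 units). These are near-identical copies whose signals cannot be fully separated. Of 38 genes of the endoplasmic reticulum 1 was higher, Herpud1 (from 1007 to 4135 units). Of 34 tRNA synthetase and integrated stress genes 5 were higher, including the pseudokinase gene Trib1 (6.45-fold) and Nupr1 (5.61-fold), and none was lower.

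Of 37 genes of costimulation and antigen presentation 8 were higher and 2 lower. Of 27 complement, coagulation and acute phase genes 8 were higher and 2 lower. The 8 were Saa3, Lcn2, F10, Procr, Cfb, Ptx3, Slfn2 and Cp, of which Cfb is a component of complement. Slfn2 belongs to an interferon-inducible family and fits that class less well. Of 47 interferon and interferon-stimulated genes 9 were higher. Cd40, the receptor for T cell help, read 107 units untreated and 4656 with LPS, 43.5-fold higher, and Tnfsf9, the 4-1BB ligand, 159.9 units untreated and 5007 with LPS. The inhibitory ligand gene Cd274, which encodes PD-L1, went from 529.9 to 1581 units, while the inhibitory receptor genes Vsir and Cd200r1 went from 3242 to 1422 units and from 4274 to 1948 units. In the coagulation class the anticoagulant receptor genes differed: Procr was higher, from 733 to 2285 units, and Thbd, thrombomodulin, lower, from 497 to 89.7 units. The acute phase gene Saa3 was 46.7-fold higher, at 268 units untreated and 12486 with LPS. Among interferon-stimulated genes, Gbp2 went from 1629 to 7234 units and Rsad2, viperin, from 3783 to 14229 units, and none of the 47 was lower.

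In protein kinases 13 of 64 were higher and 5 lower, of which 3 stayed lower under both rescalings of the arrays. Src went from 98.2 to 723 units, Pim1 from 733 to 5105 units, Jak2 from 637 to 3385 units and Ikbke, a kinase that activates interferon regulatory factors, from 676 to 4235 units. Tec, a tyrosine kinase, went from 3739.5 to 1499 units, and Mknk2, which phosphorylates a translation initiation factor, from 7805 to 2734 units. Map3k14, the kinase of the alternative NF-kB pathway, read 144 units untreated and 69.4 with LPS, but after either rescaling of the arrays another of its probe sets became the brightest and the log2 difference was near 0.

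Of 32 compared Notch pathway genes 3 were higher, or 9.4%, and 1 lower, or 3.1%, against 4.66% and 4.77% of all genes. Jag1, a ligand whose promoter is printed above, read 323 units untreated and 6245 with LPS, 19.3-fold higher. Rbpj, the DNA-binding factor of the pathway, went from 1645 to 7702 units. Dtx2 was 2.06-fold higher, and Tle1, a corepressor that HES proteins recruit, went from 1052 to 453 units, with a log2 difference of -0.02 on its other probe set. The receptor genes Notch1 and Notch2 were short of 2-fold, at 1024 units untreated and 977 with LPS and 3067 units untreated and 4665 with LPS.

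Several large classes had few or no members past 2-fold. None of 52 autophagy and lysosomal genes, 41 respiratory chain genes, 45 ribosomal proteins, 56 genes named Atp or 15 reference genes was higher or lower on its brightest probe set. In the lysosomal list Ctsc, the protease cathepsin C, read 8106 units untreated and 13382 with LPS on that probe set, a log2 difference of 0.72, but its 2 other probe sets gave 2.93 and 3.44. An additional probe set of Ctsb, cathepsin B, gave -1.08 against 0.14. The lysosomal list had a median log2 difference of -0.15, close to the -0.10 over all genes. For ribosome biogenesis 1 of 56 was higher, Rrs1 (from 1155 to 3957 units), and for the proteasome 1 of 43, Psmd10.

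**Figure D5:**
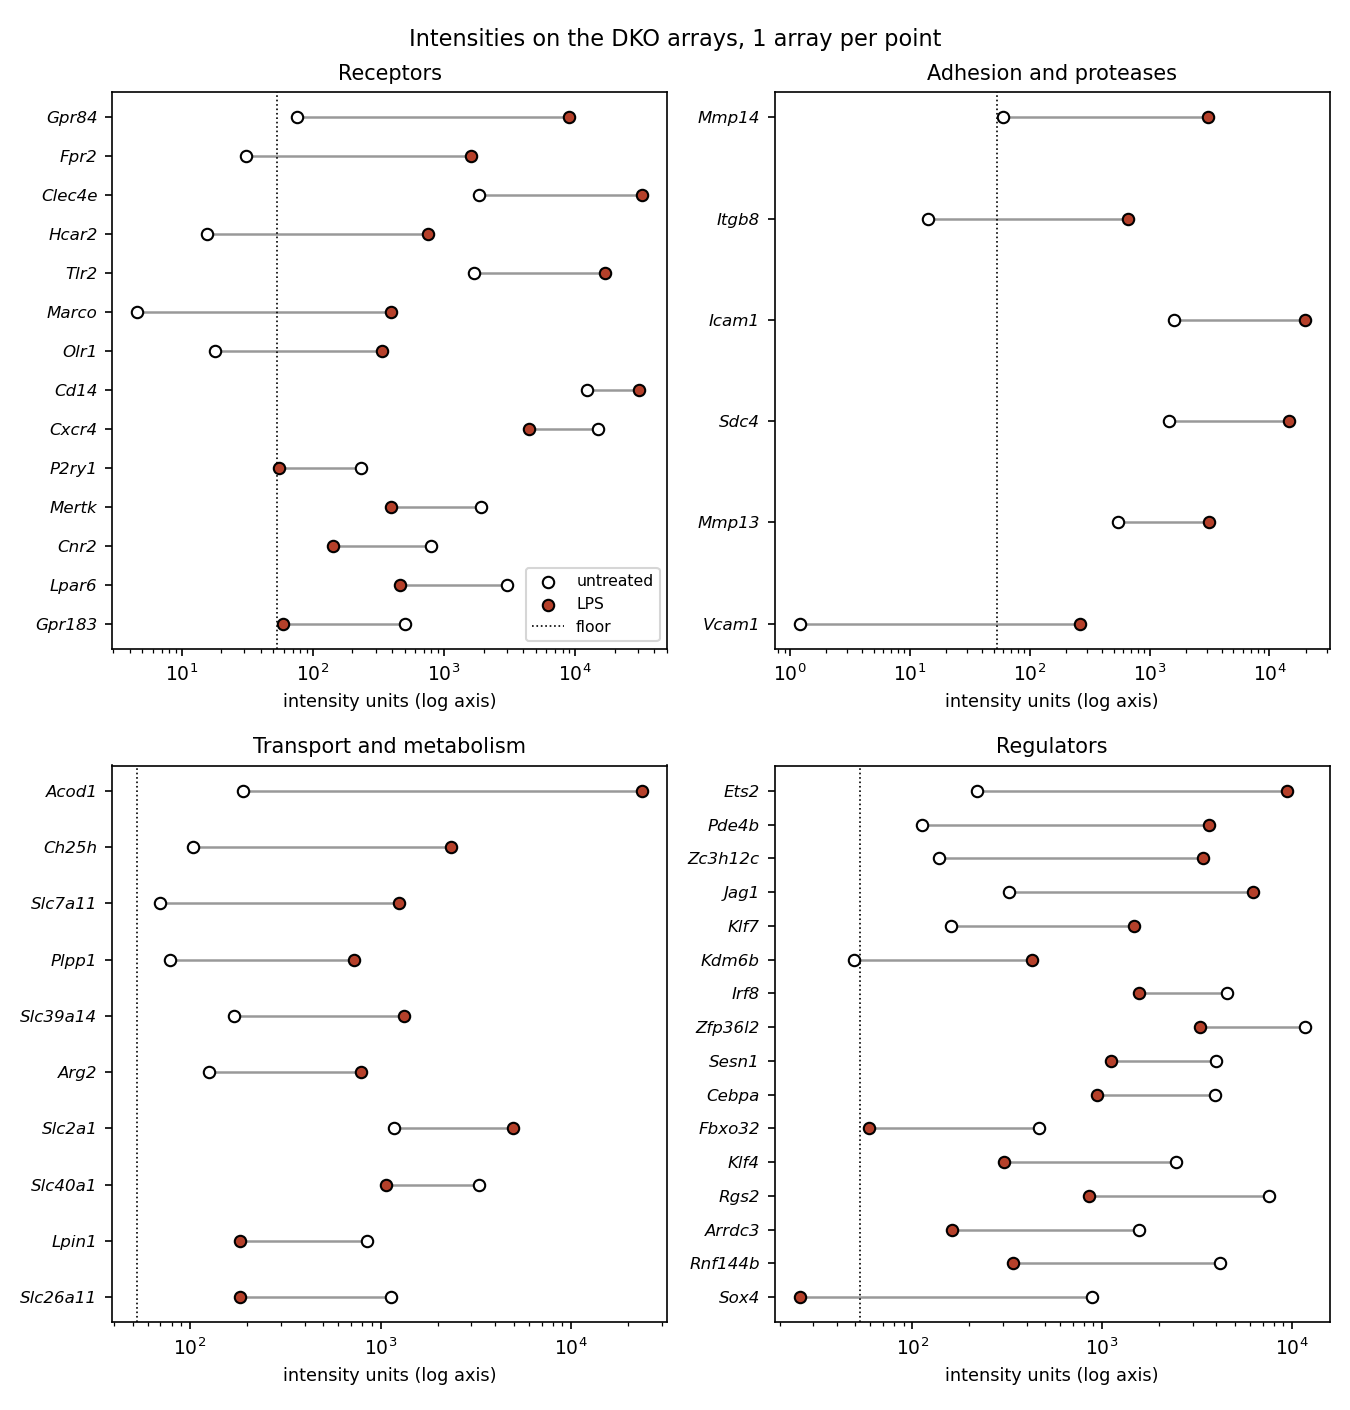
Open circles give the intensity in untreated DKO cells and filled circles that in LPS-treated DKO cells, 1 array each, on log axes in intensity units, for receptors, adhesion genes and proteases, transport and metabolic genes, and regulators. The dotted line is the floor of 52.9 units; in each panel genes are ordered by their log2 difference, and Marco, Olr1, Vcam1, Hcar2, Fpr2, Itgb8 and Kdm6b start under the floor while Sox4 ends under it.

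Genes past 2-fold were in places next to each other on the chromosome. Over 6785 pairs of neighbouring protein-coding genes that were both compared, both were higher in 48 pairs and both lower in 39. Some such pairs arise without any clustering, since 4.66% of all genes compared were higher and 4.77% lower. Their number was not computed, so the counts describe only. Beside chemokine clusters, the runs included receptors and enzymes. Trem1, Trem3 and Treml4 were higher together (log2 differences 2.37, 1.03 and, from the floor, 3.30), as were Slc7a7, Mrpl52 and Mmp14 (1.23, 1.27 and 5.68). Pla2g4a lies next to Ptgs2 and Fas next to Ch25h, and both members of each pair were higher. Sesn1, Armc2 and Foxo3 were lower together (-1.84, at the floor -1.62, and -1.85). Adjacency alone does not show shared control.

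WT cells, measured on 2 other arrays, had 386 genes higher with LPS, 3.36% of 11489 compared, and 392 lower, 3.41%. That made 778 in either direction, 6.77%. The WT array medians were 59.1 units untreated and 50.9 with LPS, against 51.0 and 50.8 for DKO cells. Genes above the floor on the untreated array alone numbered 739 in WT cells and 449 in DKO cells. Counts after rescaling are given for DKO cells only, and the part of these medians in the WT counts was not tested. The difference between the genotypes' responses was not tested, since each group is 1 array. Of the 536 lower genes in DKO cells, 221 were also lower in WT cells and 313 were there short of 2-fold; of the higher genes 338 were also higher in WT cells and 177 were short of 2-fold there. Some values, chosen after they were seen, show the range. Plpp1, a lipid phosphate phosphatase, went from 78.8 to 723 units in DKO cells and from 158 to 215 in WT cells. P2ry1 started higher in DKO cells, at 232 against 86.6 units, and ended close to the WT level, at 54.9 against 63.1. Src went the other way, starting at 98.2 against 307 units and ending at 723 against 679, so its larger ratio in DKO cells came with a lower untreated value. Mmp14 and Ehd1 had the same form: untreated they read 59.8 against 164 and 338 against 732 units, and with LPS 3068 against 2902 and 9554 against 7279. Klf4 went from 2447 to 305 units in DKO cells and from 3227 to 921 in WT cells, and Irf2bpl, a nuclear protein gene, from 1464 to 176 units in DKO cells and from 1761 to 694 in WT cells. These DKO values with LPS were lower than the WT ones, on single arrays whose spread is unknown.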

How the data were processed

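RNA of 4 mouse samples was read on Affymetrix arrays of 45101 probe sets, 1 array per group. The authors deposited 1 linear intensity per probe set, with each array's mean after trimming 2% at either end at 500.0 by the values and with the summarising tool not given in the sources used here. Scaling to a mean leaves dim signal free. Bacterial control probe sets (27) reached at most 23.5 units on the DKO arrays. Control probe sets (64), those with several genes (932) and those not listed with a gene (9160) were left out, and symbols of 34741 probe sets were matched through RefSeq (GRCm38.p6). A gene's value is its brightest probe set by mean over the 4 arrays. Values under the pooled median, 52.9 units, were set to it before log2. Nothing was tested, since 1 array per group leaves no spread, and the number of arrays limits the precision. For 4868 genes the 2 brightest probe sets differed by a median of 0.20 in log2 difference, which compares probe sets on the same arrays and not replicates.

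The members and the 56 lists (2130 of 2297 entries matched) were chosen with earlier results of these data known. Named genes are the 25 largest differences and 12 largest bounds in each direction, list and family members past 2-fold, the 4 largest of each list, runs of neighbours, the 10 brightest with LPS, and Ptgs2, Cxcl1, Mmp14, Hes1 and Hey1. Csf1r, Adgre1, Pf4, Tlr4, Nos2, Ctsb, Ldha, Hk2, Notch1 and Notch2 were named outside this rule. A further probe set could be read on both DKO arrays for 231 of the named genes past 2-fold: in 151 all further ones were past 2-fold the same way, and in 0 was one past 2-fold the other way. Promoters came from RefSeq for 9185 compared genes. Alternatives were 2 scalings, 2 floors, an offset of 16 units, the median probe set, leaving out shared probe sets, and 1.5-fold and 3-fold as thresholds. Some results are not reported here. Counting was checked on simulated data. Python 3.11.15, numpy 2.4.6, pandas 2.3.3, scipy 1.17.1 and matplotlib 3.10.9 were used.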

Additional observations from a re-analysis of the deposited data

Results flagged for a closer look

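In 3 genes LPS went with a difference of at least 2-fold in opposite directions in the 2 genotypes, 1 array against 1 in each; this difference was not tested. Lipn, a lipase gene, read 188 units untreated and 48.7 with LPS in DKO cells, a log2 difference held at -1.83 by the floor, and 72.9 and 149.9 units in WT cells (1.04). Rap1gap, which inactivates the GTPase RAP1, read 61.1 and 138 units in DKO cells (1.18) and 139 and 62.5 in WT cells (-1.15). Rnpc3, a protein of the minor spliceosome, read 228 and 474 units in DKO cells (1.06) and 581 and 286 in WT cells (-1.02), while its other probe set gave 0.69 in DKO cells.

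Probe sets not listed with a gene were outside the comparisons. Of 2572 of them above the floor in DKO cells, 120 were at least 2-fold higher with LPS, or 4.67%, and 126 lower, or 4.90%, close to the shares among named genes. The one with the largest difference read 85.3 units untreated and 3444 with LPS.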

How the results depend on the processing

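No paired analysis was possible because each group has 1 array and no result comes from a test, and for the same reason no array could be left out. The main counts were 524 higher and 536 lower. Equal array medians gave 539 and 536, quantile normalization 570 and 454, an offset of 16 units 622 and 592, the median over each gene's probe sets 476 and 479, and leaving out shared probe sets 448 and 496. Larger moves came with a floor at the 35th percentile (800 higher, 771 lower), a floor at the 65th percentile (419 and 357), and thresholds of 1.5-fold (1005 and 1632) and 3-fold (277 and 138); these change how many genes can be counted by construction. Of 1060 genes past 2-fold, 968 stayed so in the same direction under both scalings, and of 566 named ones, 535.

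Signs turned in 5 values. Map3k14 went from a log2 difference of -1.05 to 0.088 after quantile normalization, where its other probe set became the brightest (-0.018 with equal medians), Ppp1r12b from 2.32 to -0.014 with the median of its probe sets, and Ric8a from -1.11 to 0.92 and Slc66a2 from -1.04 to 0.087 without shared probe sets. The median of the chemokine receptors, over 6 genes, went from -1.07 to 0.12 with a floor at the 35th percentile, which admits dimmer genes. The cause of the other turns was not tested. Signal over background limits dim genes: 6953 of 18193 genes were under the floor on both DKO arrays and have no difference here.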
